A study of Mus musculus with 52 samples.

Results

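Lysosomal genes were followed in cDC1, the conventional type 1 dendritic cells, from cultured mouse bone marrow. The set comprised 34 named genes and every further gene of the count table whose symbol starts with Atp6v0 or Atp6v1, as those of proton pump subunits do. This match by name added 20 genes, so that 54 of the 23135 genes of the table were members. Not all of the 20 are subunit genes: Atp6v0c-ps1 and Atp6v0c-ps2 carry pseudogene symbols, and Atp6v1fnb is named as a neighbour of Atp6v1f. All 54 had at least 1 count in the 52 libraries. They were grouped by role into 12 proteases and their partners, 6 enzymes and carriers of lipids, 5 glycosidases, 10 membrane proteins and 21 genes listed under the proton pump, Tcirg1 and all the genes matched by name included.

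The lysosome is the acidic compartment in which proteins, lipids and glycans are broken down by hydrolases that work at low pH. A multi-subunit proton pump, the V-ATPase, acidifies it: the peripheral V1 part splits ATP and the membrane part V0 carries the protons. In dendritic cells the same proteases and the same acidity decide how far antigen is cut before it is loaded on MHC molecules, and many lysosomal genes are known to share a promoter element, CLEAR, that is bound by the transcription factor TFEB.

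Per the labels, all cells came from C57BL/6 bone marrow grown with GM-CSF and FLT3L and were sorted as CD103+ cDC1, and RNA was counted in 3′-end libraries with unique molecular identifiers. At 4 h the groups were PGE2 (prostaglandin E2, 100 ng/ml) after 30 min with 5 uM of an antagonist of its receptors EP1 (SC-19220), EP2 (PF-04418948), EP3 (L-826,266) or EP4, or of EP2 together with EP4, PGE2 alone, conditioned medium (CM) of control BRAFV600E melanoma cells, CM of Ptgs1/Ptgs2-/- melanoma cells, which lack the cyclooxygenases that PGE2 synthesis needs, and untreated cells. For the group named EP2 + EP4 in titles and descriptions, the treatment label lists SC-19220, the agent of the EP1 group, with that of the EP4 group. Which agent accompanied the EP4 antagonist is therefore uncertain, and the group is called EP2 + EP4 below only as its title does. At 24 h the groups were PGE2 with the TLR3 ligand poly I:C (10 ug/ml, for the last 4 h), poly I:C alone, PGE2 alone and untreated cells. Each of the 13 groups had 4 libraries, labelled biological replicates A to D. The labels do not say that they came from separate animals or cultures, so p-values measure the spread between these libraries.

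The median library held 295484.5 counts and the deepest 438491, while 2 libraries, A of the EP4 antagonist and untreated A of 4 h, had only 42666 and 54107. Levels below are CPM, counts scaled to a common library total and by TMM factors over the 52 libraries together, and are listed in the order A to D. A floor of 3 counts was used, as an approximate upper limit of the mean where 0 is counted. On this scale the floor was 9.96 CPM in the median library and up to 60.4 CPM in the shallowest. It was 12 to 16.7 CPM with PGE2 and poly I:C and 13.7 to 17.4 CPM with poly I:C. Every fold change is a log2 fold change ± its standard error (SE), every adjusted p comes from edgeR's quasi-likelihood test over all genes tested (5754 at 4 h, 5273 at 24 h), and genes with an adjusted p of at most 0.05 are called. A filter on low counts left 43 members at 4 h and 44 at 24 h. Too low for a test at either time were Neu1, Atp6v1g2, Tpp1, Ctsl, Atp6v0c-ps2, Atp6v0c-ps1, Atp6v1g3, Atp6v0c, Atp6v0d2 and Atp6v1fnb, with 192 counts (Neu1) to 1 count over all libraries, and at 4 h Atp6v0a1. Of the 44 members tested at 1 time or both, Lamp1 and the pump genes Atp6v1f and Atp6v1c1 were called in none of the 17 comparisons. All 10 listed markers of cDC1 had counts in every group, while the melanoma markers Pmel and Dct summed to at most 7.33 CPM in any library. Of 14 macrophage and monocyte markers 12 were used, and of these Lyz2 and Csf1r had counts in every library, whereas Adgre1, C1qc, C1qa and Mertk had 8, 5, 4 and 1 over all 52. In these bulk samples fewer cells of a type and less RNA per cell cannot be told apart. Library B of the EP3 antagonist group stood apart from its group: its cDC1 markers summed to 5164 CPM, the highest of the 4, against a group median of 3666 CPM, and its Naaa and Hvcn1 levels lay far above those of libraries A, C and D.

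Promoter sequence is shown first because many lysosomal genes are known for a shared element. RefSeq windows of GRCm38.p6, from 250 bases before to 50 bases after the start of a gene, were at hand for 40 of the 54 members and 27025 genes in all. TCACGTGA, the core of the CLEAR element, stood in a window of 17.5% of these members and of 1.12% of these genes. The E-box CACGTG, which TCACGTGA contains, was found in 27.5% of the members and 8.09% of all genes. A form of the ISRE, an element that interferon regulatory factors bind (GAAA, any 2 bases, GAAA), was found in 10.0% and 3.99%. TGACGTCA, the cAMP response element, was found in 2.5% and 2.03%, and each set of letters was searched on both strands. Below are the 200 bases before the start of 5 members, with these letters in capitals: Naaa and Ppt1, which were lower with PGE2 at both times, Ctss, which was higher at both times, and 2 examples of the shared element, Ifi30, with TCACGTGA, and Lamp1, with 4 copies of CACGTG. The stretches lie at chr5:92278182-92278381, minus strand (Naaa), chr4:122836027-122836226, plus strand (Ppt1), chr3:95526586-95526785, plus strand (Ctss), chr8:70766664-70766863, minus strand (Ifi30) and chr8:13158961-13159160, plus strand (Lamp1).
Naaa: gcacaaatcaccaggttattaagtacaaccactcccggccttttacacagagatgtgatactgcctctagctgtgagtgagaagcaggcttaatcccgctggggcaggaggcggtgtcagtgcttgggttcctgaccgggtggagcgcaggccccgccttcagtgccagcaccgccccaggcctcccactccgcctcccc
Ppt1: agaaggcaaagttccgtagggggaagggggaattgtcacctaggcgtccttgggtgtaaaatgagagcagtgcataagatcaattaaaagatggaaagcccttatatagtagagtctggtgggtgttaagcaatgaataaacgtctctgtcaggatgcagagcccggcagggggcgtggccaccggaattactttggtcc
Ctss: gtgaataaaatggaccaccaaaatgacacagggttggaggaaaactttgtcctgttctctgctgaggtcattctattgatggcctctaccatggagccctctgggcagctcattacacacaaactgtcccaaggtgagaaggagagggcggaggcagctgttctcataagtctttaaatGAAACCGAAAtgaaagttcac
Ifi30: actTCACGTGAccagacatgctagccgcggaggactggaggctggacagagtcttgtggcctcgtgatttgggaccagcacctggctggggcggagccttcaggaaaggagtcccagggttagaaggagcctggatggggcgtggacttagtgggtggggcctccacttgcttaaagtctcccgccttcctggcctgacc
Lamp1: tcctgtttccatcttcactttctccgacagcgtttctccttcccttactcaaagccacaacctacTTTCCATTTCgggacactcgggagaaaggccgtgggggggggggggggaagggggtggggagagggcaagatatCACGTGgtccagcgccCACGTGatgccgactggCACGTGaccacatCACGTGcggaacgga
Neither stretch of the PGE2-lowered genes Naaa and Ppt1 holds any of the 4 sets of letters. In the Ctss stretch GAAACCGAAA begins 21 bases before the start, and in that of Ifi30 TCACGTGA begins 197 bases before it. A match is a description of the letters and no evidence of binding, and no match says only that these letters are not in the window. Of the 9 members that fell with PGE2 at 4 h, 6 had a window, and none of the 6 held TCACGTGA or CACGTG. TCACGTGA stood in a window of 2 of 12 members that rose with poly I:C at 24 h and of 4 of 13 that fell, counting members with a window.

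PGE2 at 4 h lowered 4 of 6 lipid-handling genes and the proton channel gene Hvcn1, and raised the transporter gene Slc15a3 and the cathepsin gene Ctss. Of 43 members tested, 2 rose and 9 fell, where 8.57% of all genes were called, 5.21% higher and 3.35% lower. The median log2 fold change of the members was -0.16, against -0.01 for all genes tested. With library totals in place of TMM factors the median of all genes was -0.13, and the same 11 members were called. Members took 0.845% to 0.976% of the counts of the PGE2 libraries and 0.9999% to 1.23% of those of untreated cells. The lipid genes took 0.146% to 0.187% with PGE2 and 0.296% to 0.380% without. In every other role group the ranges of the shares overlapped. Shares of counts here and below use library totals without TMM factors, which were 1.02 to 1.07 with PGE2 and 1.12 to 1.23 without.

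The lipid group held 4 of the 9 members that fell, out of 6 tested. Naaa and Ppt1 entered the set as genes enriched in cDC1, and the summed cDC1 markers, given below, were lower with PGE2 as well. Whether these changes are linked was not tested. Naaa, whose acid amidase hydrolyses palmitoylethanolamide and related lipid amides, lies at chr5:92257659-92278170, minus strand. It was at 542, 466, 453 and 439 CPM in PGE2 cells, against 889.8, 1290.3, 1254 and 1266 CPM in untreated cells (log2 fold change -1.36 ± 0.15, adjusted p = 1.37e-11). Ppt1, a thioesterase that takes fatty acyl groups off proteins, lies at chr4:122836242-122859175, plus strand. It was at 349, 195, 202 and 217 CPM in PGE2 cells, against 603, 808, 657 and 605 CPM in untreated cells (-1.52 ± 0.25, adjusted p = 4.15e-05). For both genes every PGE2 library was below every untreated one, and library A was the highest PGE2 library. Lipa, the acid lipase of cholesteryl esters and triglycerides, was at 56.6, 45.8, 40.4 and 33.3 CPM in PGE2 cells, against 90.5, 67, 119.9 and 129 CPM in untreated cells (-1.26 ± 0.31, adjusted p = 0.00142). Psap, the precursor of the saposins that help sphingolipid hydrolases, was at 579.8, 588, 442 and 494 CPM in PGE2 cells, against 543, 965, 934 and 764 CPM in untreated cells (-0.68 ± 0.13, adjusted p = 3.42e-05). The Lipa groups did not overlap, whereas untreated A, the shallowest library of its group, put the Psap level of untreated cells within the PGE2 range. The carriers that hand cholesterol out of the lysosome were not called: Npc1 had a log2 fold change of -0.48 ± 0.43 and Npc2 of -0.05 ± 0.18.

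Among the 10 membrane proteins 1 rose and 3 fell. Slc15a3, a transporter of histidine and small peptides in the endolysosomal membrane (chr19:10839727-10859362, plus strand), was at 127, 42, 77.9 and 44.4 CPM in PGE2 cells, against 15.1, 3.35, 5.71 and 2.64 CPM in untreated cells, which held only 5 counts of it in all (3.86 ± 0.57, adjusted p = 7.25e-08). Hvcn1, the voltage-gated proton channel (chr5:122206804-122242297, plus strand), was at 0, 15.3, 11.5 and 16.7 CPM in PGE2 cells, against 45.2, 83.8, 103 and 74 CPM in untreated cells (-2.87 ± 0.48, adjusted p = 7.43e-07). Neither pair of groups overlapped, and the PGE2 library with no Hvcn1 count was A. Cln8, which helps newly made hydrolases leave the endoplasmic reticulum, was at 8.25 ± 3.13 CPM with PGE2 and 41.6 ± 18.1 CPM without (SD, n = 4 each; -2.16 ± 0.62, adjusted p = 0.0095). Cd68, a heavily glycosylated protein of the lysosomal membrane, was at 71.2 ± 14.9 CPM with PGE2 and 120.1 ± 35.9 CPM without (SD, n = 4 each; -0.86 ± 0.25, adjusted p = 0.0127). The structural proteins Lamp1 and Lamp2 were not called (-0.19 ± 0.20 and -0.45 ± 0.35), nor were Laptm4a, Laptm5, Scarb2 and the calcium channel gene Mcoln1.

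Of 10 proteases and partners, Ctss rose and Grn fell. Ctss, the cathepsin that trims the invariant chain of MHC class II, was at 1070.0, 1085, 1091 and 983 CPM in PGE2 cells, against 573, 831, 828 and 705 CPM in untreated cells (0.48 ± 0.12, adjusted p = 0.00233), and the groups did not overlap. Grn, progranulin, was at 416 ± 24.5 CPM with PGE2 and 624 ± 136 CPM without (SD, n = 4 each; -0.66 ± 0.16, adjusted p = 0.00143). The other proteases lay between -0.51 (Ctsa) and 0.22 (Ctsz) without passing the test. None of the 4 glycosidases tested was called, and of 13 proton pump genes only Atp6v0a2, a membrane subunit, was (-0.76 ± 0.26, adjusted p = 0.045). When 1 setting was changed or 1 library left out, the call of Atp6v0a2 was lost with no filter, with DESeq2 or without untreated B, C or D or PGE2 C or D (0.0714 to 0.449), the adjusted p values of those fits standing in brackets here and below. That of Cd68 was lost with no filter or without untreated C or PGE2 C or D (0.0547 to 0.137) and that of Cln8 without untreated B or PGE2 B (0.0556 to 0.0837), whereas the other 8 calls held in every other fit. Markers of cDC1 moved in the same direction: their sum was 3752 to 4341 CPM with PGE2 and 6403 to 6769 CPM without, with 10 of 10 markers detected in both groups. The summed macrophage and monocyte markers ranged from 855.3 to 1074 CPM with PGE2 and from 799.3 to 1262 CPM without, with 9 of the 12 markers detected with PGE2 and 10 without. Plasmacytoid dendritic cell markers summed to 20.2 to 49.99 CPM with PGE2 and 52.84 to 105.6 CPM without, with 6 and 4 of 6 markers detected. The part of these markers in the results was not tested.

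**Figure D1:**
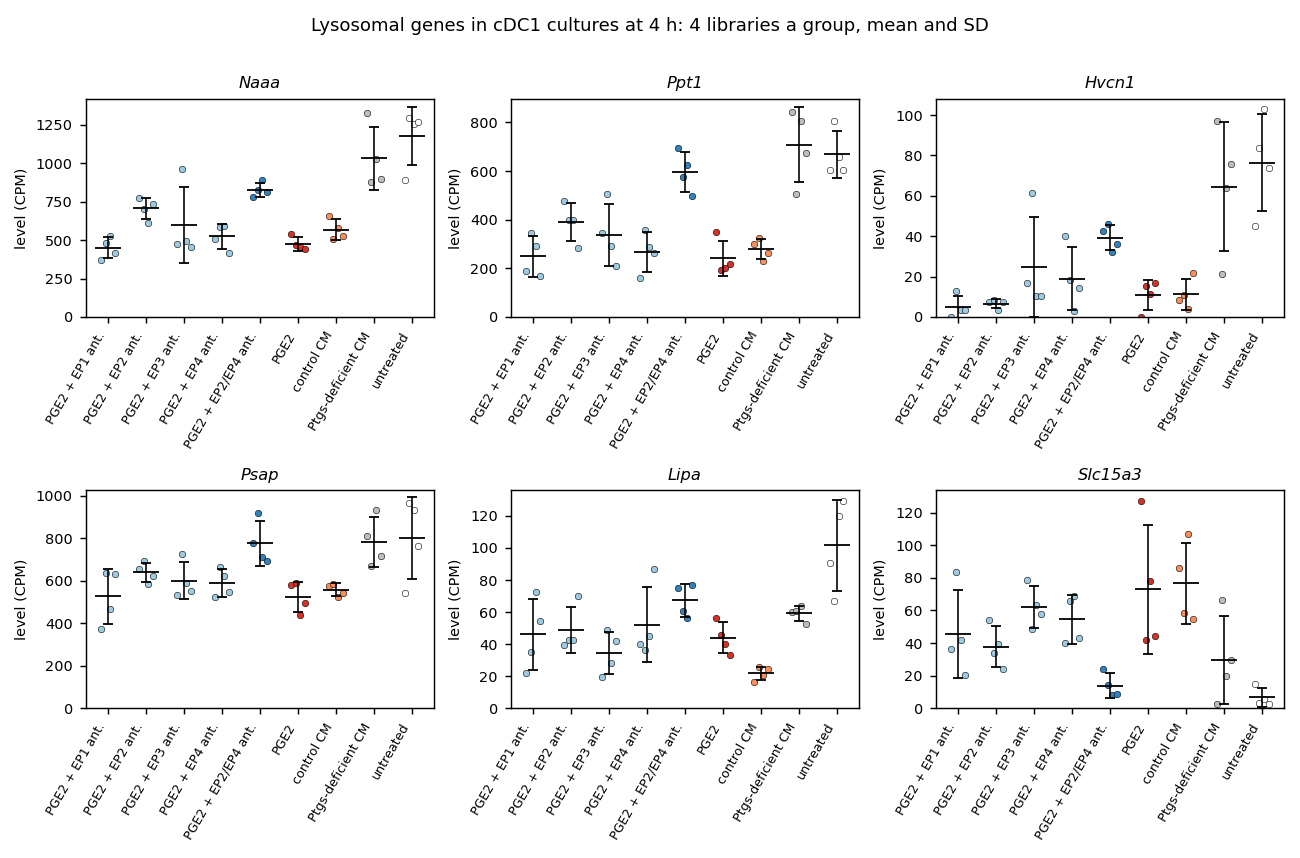
Level of 6 lysosomal genes in each library at 4 h, in CPM (vertical axis, linear, from 0), for the 9 groups (horizontal axis); points are libraries and bars are the mean with the SD of 4. Naaa, Ppt1 and Hvcn1 are low with PGE2 and with control CM and higher with Ptgs-deficient CM, in the EP2 + EP4 group and in untreated cells, while Slc15a3 is lowest in untreated cells; library B of the EP3 antagonist stands above its group in Naaa and Hvcn1.

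The same genes were also compared in libraries given melanoma medium, where the labelled difference was the loss of the cyclooxygenases in the melanoma cells. Which product of the melanoma cells a change goes with was not tested, so PGE2 is not singled out. Against CM of Ptgs-deficient cells, control CM lowered the lipid genes Naaa, Ppt1, Lipa and Psap, the glycosidase gene Fuca2 and Hvcn1, and raised Slc15a3, so that 1 member rose and 6 fell of 43 tested, where 3.95% of all genes were called, 2.43% higher and 1.51% lower. The median was -0.14 for members and -0.01 for all genes. Naaa, Ppt1, Lipa, Psap and Hvcn1 fell both here and with PGE2, and Slc15a3 rose in both comparisons, which have no library in common. How many of all genes did so was not counted, so the overlap is no result about these members in particular.

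Naaa was at 656, 508, 580.5 and 524 CPM with control CM, against 1324, 875, 1023 and 897 CPM with Ptgs-deficient CM (-0.86 ± 0.14, adjusted p = 1.04e-05). Ppt1 was at 299, 325, 231 and 265 CPM with control CM, against 845, 506, 807 and 674 CPM with Ptgs-deficient CM (-1.33 ± 0.23, adjusted p = 0.000307). For both, all control CM libraries lay below all Ptgs-deficient CM libraries. Lipa was at 16.4, 25.6, 20.6 and 24.6 CPM with control CM, against 59.9, 60.5, 63.9 and 52.6 CPM with Ptgs-deficient CM (-1.40 ± 0.36, adjusted p = 0.0067). Psap was at 578, 588, 523 and 543 CPM with control CM, against 813, 669, 935 and 719.5 CPM with Ptgs-deficient CM (-0.48 ± 0.13, adjusted p = 0.0101). These groups did not overlap either. Hvcn1 was at 8.2, 11, 4.12 and 21.8 CPM with control CM, against 97, 21.2, 63.9 and 75.6 CPM with Ptgs-deficient CM (-2.36 ± 0.46, adjusted p = 9.54e-05). Fuca2, a fucosidase, was at 57.4, 25.6, 24.7 and 21.8 CPM with control CM, against 54.2, 78.7, 48 and 88.7 CPM with Ptgs-deficient CM (-1.10 ± 0.33, adjusted p = 0.0315). Slc15a3 was at 86.1, 58.4, 107 and 54.6 CPM with control CM, against 2.85, 66.6, 20 and 29.6 CPM with Ptgs-deficient CM (1.31 ± 0.38, adjusted p = 0.023). In these 3 genes the groups overlapped: by library B of Ptgs-deficient CM for Hvcn1 and Slc15a3, and by library A of control CM for Fuca2.

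Ctss had 0.31 ± 0.11 (adjusted p = 0.124), and Grn, Cln8, Cd68 and Atp6v0a2, the other members that PGE2 lowered, had -0.43 ± 0.15, -1.75 ± 0.58, -0.24 ± 0.26 and -0.21 ± 0.24 without passing the test. The calls of Naaa, Ppt1, Lipa and Hvcn1 held in all 15 other fits. That of Fuca2 was lost with no filter, with DESeq2 or without control CM B, C or D or Ptgs-deficient CM B or D (0.052 to 0.201), that of Slc15a3 with DESeq2, with only the groups compared or without control CM A or C or Ptgs-deficient CM A, C or D (0.0609 to 0.249) and that of Psap without control CM C or D or Ptgs-deficient CM A or C (0.0538 to 0.124). Set against untreated cells, control CM had 2 members higher and 9 lower (background 7.56%), with 7 of the 11 calls held in every other fit, and Ptgs-deficient CM had none of 43 (background 0.0869%), with 5 at an unadjusted p under 0.05 and none by DESeq2. Slc15a3 had 2.59 ± 0.65 with Ptgs-deficient CM against untreated cells (adjusted p = 0.123), and was called without library A of Ptgs-deficient CM (adjusted p = 0.00306). Summed cDC1 markers were 4667 to 5153 CPM with control CM and 5298 to 7518 CPM with Ptgs-deficient CM, and their part was not tested.

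**Figure D2:**
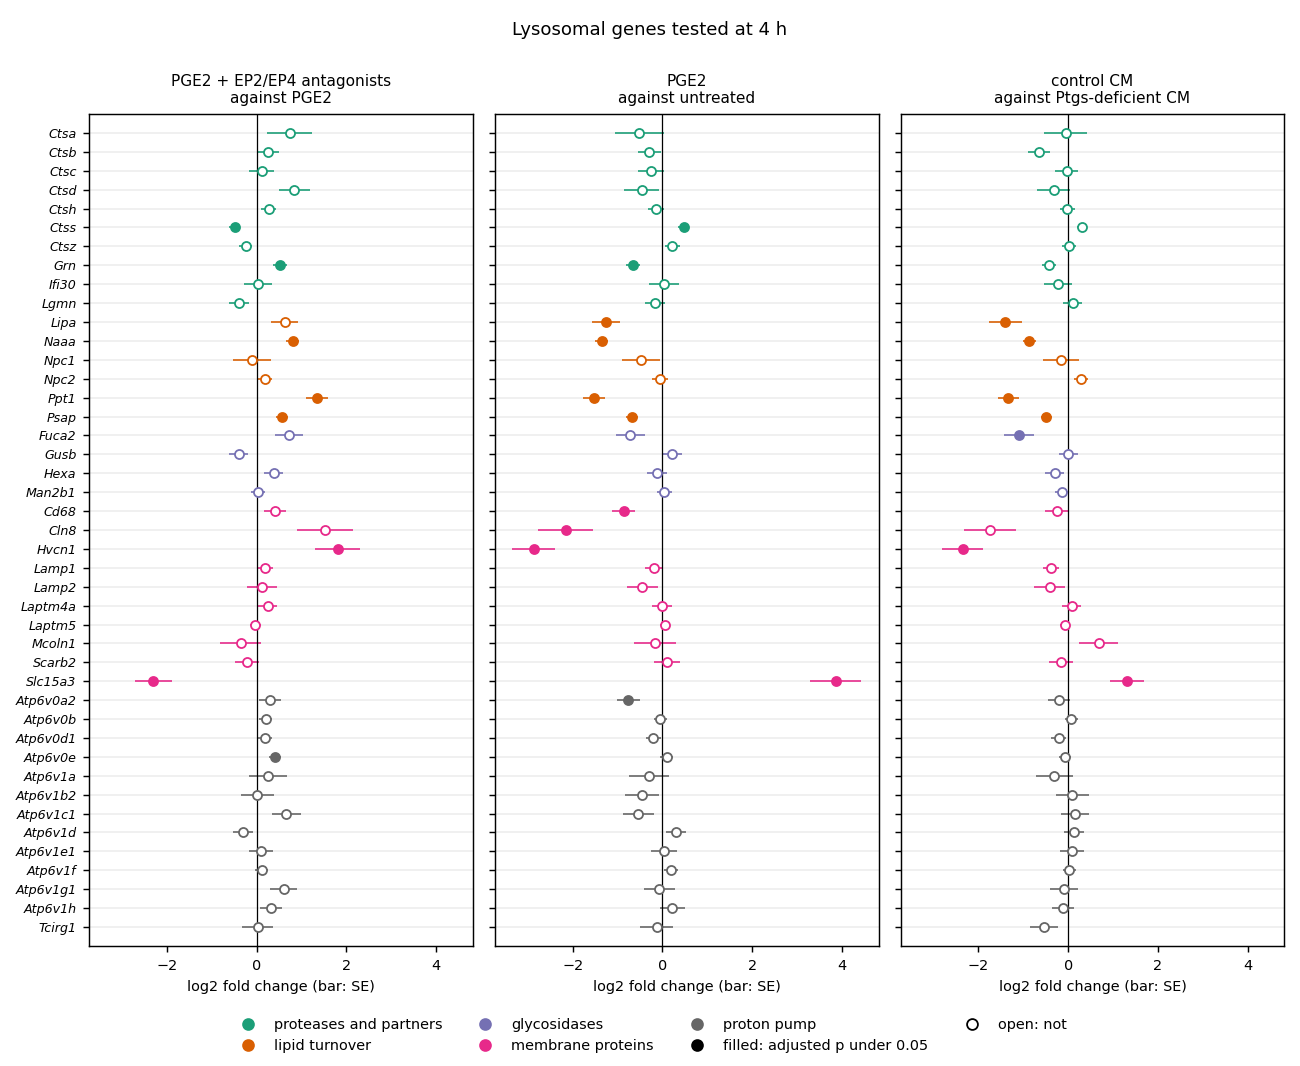
Log2 fold change of the 43 members tested at 4 h (horizontal axis, bars the SE of the fit) by gene (vertical axis, coloured by role) in 3 comparisons; filled points have an adjusted p of at most 0.05. Naaa, Ppt1, Psap, Lipa and Hvcn1 lie right of 0 in the comparison with EP2 + EP4 antagonists and left of it in those of PGE2 and of control CM, and Slc15a3 does the reverse.

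Antagonists were compared with PGE2 alone. With the EP2 + EP4 pair, whose second agent is uncertain as stated above, 6 members were higher and 2 lower than with PGE2, where 9.52% of all genes were called, 4.21% higher and 5.32% lower. Those higher were Naaa, Ppt1, Psap, Hvcn1, Grn and Atp6v0e, a small membrane subunit of the pump, and those lower were Slc15a3 and Ctss. Of these, 7 were members that PGE2 had moved the other way, but both comparisons use the same PGE2 libraries, so that the values are only set side by side. How many of all genes did so was not counted. The members' median was 0.20, against 0.01 for all genes.

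Naaa was at 780.3, 824, 889 and 812 CPM with the pair and PGE2, against 542, 466, 453 and 439 CPM with PGE2 (0.80 ± 0.15, adjusted p = 3.05e-05). Ppt1 was at 693, 576, 625 and 498 CPM with the pair, against 349, 195, 202 and 217 CPM with PGE2 (1.34 ± 0.24, adjusted p = 0.000201). Slc15a3 was at 24.4, 14.4, 8.08 and 9.05 CPM with the pair, against 127, 42, 77.9 and 44.4 CPM with PGE2 (-2.31 ± 0.41, adjusted p = 9.9e-06). None of these groups overlapped. Hvcn1 was at 42.7, 46.1, 32.3 and 36.2 CPM with the pair, against 0, 15.3, 11.5 and 16.7 CPM with PGE2 (1.80 ± 0.50, adjusted p = 0.00897), Psap at 777 ± 104 against 526 ± 70.5 CPM (0.57 ± 0.13, adjusted p = 0.000653) and Ctss at 750.1 ± 46.3 against 1057 ± 50.2 CPM (-0.50 ± 0.12, adjusted p = 0.000782; SD, n = 4 each). Grn (0.52 ± 0.15, adjusted p = 0.015) lost its call without PGE2 C or EP2 + EP4 C (0.0685 to 0.0715), Hvcn1 without PGE2 A (0.0605), and Atp6v0e (0.40 ± 0.13, adjusted p = 0.0366) with no filter, with DESeq2 or without PGE2 B, C or D or EP2 + EP4 A, C or D (0.0609 to 0.161). Against untreated cells the pair still had Naaa lower (-0.56 ± 0.14, adjusted p = 0.0242) and Atp6v0e higher (0.49 ± 0.14, adjusted p = 0.0444), with a background of 0.799%. The first of these calls was lost with no filter or without untreated B, C or D or EP2 + EP4 A, B or D (0.062 to 0.119), and the other with RLE factors, with library totals, with no filter, without the shallow libraries or without untreated A, B, C or D or EP2 + EP4 A, C or D (0.0534 to 0.196). Summed cDC1 markers were 5235 to 5661 CPM with the pair and 3752 to 4341 CPM with PGE2, macrophage and monocyte markers 1188 to 1595 and 855.3 to 1074 CPM, and cDC2 markers 23.05 to 43.12 and 47.14 to 105.5 CPM, none of them overlapping. Their part was not tested.

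With 1 antagonist no member was called: the background was 0% for EP1, 0.417% for EP2, 0.0695% for EP3 and 0.0348% for EP4, DESeq2 called none either, and 2, 4, 3 and 2 of 43 members had an unadjusted p under 0.05. The member nearest to a call was Naaa with the EP2 antagonist. It was at 771, 704, 611 and 735 CPM with the EP2 antagonist and PGE2, against 542, 466, 453 and 439 CPM with PGE2 (0.57 ± 0.15, adjusted p = 0.0616, 95% interval 0.28 to 0.87). All 4 EP2 antagonist libraries lay above all 4 PGE2 libraries, and in a fit of only these 2 groups Naaa (0.56, adjusted p = 0.000256) and Ppt1 (0.69, adjusted p = 0.000345) were called, as they were with no filter on low counts (0.0396 and 0.0207). Ppt1 had 0.70 ± 0.25 in the fit of all 9 groups (adjusted p = 0.315). The 95% intervals for Naaa were -0.36 to 0.26 with the EP1, 0.02 to 0.62 with the EP3 and -0.15 to 0.49 with the EP4 antagonist. The lack of a call does not show that the PGE2 effect stayed as it was. Library B of the EP3 group was at 963.5 CPM of Naaa and 61.6 CPM of Hvcn1, where its other 3 libraries were at 457.5 to 494.2 and 10.5 to 16.9 CPM. Without it the Naaa fold change with the EP3 antagonist was -0.003 in place of 0.32, that of Hvcn1 0.20 in place of 1.11, and no member was called in either case. Whether 2 antagonists differ from each other was not tested.

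After 24 h with PGE2 the same lipid genes Ppt1, Naaa and Psap were lower and Ctss and Slc15a3 were higher, and Npc2, Ctsz and the pump subunit gene Atp6v0d1 were higher and Atp6v0e lower as well. That is 5 members higher and 4 lower of 44 tested, where 7.97% of all genes were called, 4.74% higher and 3.22% lower. The medians were 0.08 for members and 0.03 for all genes. Members took 1.09% to 1.13% of counts with PGE2 and 1.14% to 1.23% without. Within this sum the lipid genes took 0.168% to 0.180% with PGE2 and 0.361% to 0.377% without. The proteases and partners took 0.347% to 0.394% and 0.246% to 0.269%.

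Ppt1 was at 241, 241, 251 and 222 CPM in PGE2 cells, against 852, 876, 826 and 811 CPM in untreated cells (-1.77 ± 0.13, adjusted p = 2.01e-27). Naaa was at 496, 488, 404 and 526 CPM in PGE2 cells, against 1435, 1333, 1372 and 1260.3 CPM in untreated cells (-1.47 ± 0.11, adjusted p = 5.52e-26). Psap was at 524, 566, 505 and 632 CPM in PGE2 cells, against 830.2, 1000.2, 890.4 and 863 CPM in untreated cells (-0.66 ± 0.11, adjusted p = 1.35e-06). In each of them all PGE2 libraries were below all untreated ones. Ctss was at 1617, 1637, 1562 and 1438 CPM in PGE2 cells, against 629, 769, 719 and 791 CPM in untreated cells (1.14 ± 0.10, adjusted p = 7.6e-21). Slc15a3 was at 41.6, 41.6, 42.9 and 38.6 CPM in PGE2 cells, against 13.4, 11.3, 14.1 and 16.4 CPM in untreated cells (1.60 ± 0.38, adjusted p = 0.00145). Npc2, the soluble cholesterol carrier, was at 197, 233, 242 and 164 CPM in PGE2 cells, against 124, 144, 138 and 161 CPM in untreated cells (0.62 ± 0.15, adjusted p = 0.00158). Here all PGE2 libraries were above all untreated ones, by a small margin for Npc2. Ctsz, a cathepsin that removes single residues from the carboxyl end (0.42 ± 0.13, adjusted p = 0.0194), and Atp6v0d1 (0.44 ± 0.14, adjusted p = 0.0278) were higher, and Atp6v0e was lower (-0.42 ± 0.12, adjusted p = 0.0135). The call of Ctsz was lost with no filter, with DESeq2 or without untreated A or C or PGE2 A or B (0.0601 to 0.178), that of Atp6v0d1 with no filter, with DESeq2 or without untreated B or D or PGE2 A, B or D (0.0507 to 0.234) and that of Atp6v0e without untreated C or PGE2 B (0.0898 to 0.141), and the other 6 held in all 14 other fits.

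The effect of PGE2 differed between the times for 2 members by the test of that difference (background 4.35%). For Ctss the log2 fold change of PGE2 was larger at 24 h by 0.66 ± 0.15 (adjusted p = 0.00124). For Hvcn1 it was -0.37 at 24 h and -2.87 at 4 h, a difference of 2.49 ± 0.63 (adjusted p = 0.00589). Hvcn1 was at 16.6, 22.2, 21.4 and 29 CPM with PGE2 at 24 h, against 18.8, 31, 42.3 and 23 CPM in untreated cells of that time, so that the groups overlapped. The untreated level itself was lower at 24 h than at 4 h (-1.52 ± 0.34, adjusted p = 0.000952). Lipa, Grn, Cd68 and Cln8, called at 4 h, had -0.73 ± 0.29, -0.14 ± 0.12, -0.29 ± 0.29 and -0.09 ± 0.43 at 24 h and were not called, which alone does not show a difference, and for none of them did the test of the difference pass. In untreated cells 3 members were higher and 5 lower at 24 h than at 4 h (background 4.33%): Hexa (0.85 ± 0.18), Gusb (0.79 ± 0.19) and Atp6v0e (0.55 ± 0.12) were higher, and Lgmn (-1.02 ± 0.20), Ctsh (-0.75 ± 0.17), Npc2 (-0.67 ± 0.17), Cd68 (-0.93 ± 0.24) and Hvcn1 lower. Without untreated library C of 4 h Gusb (adjusted p = 0.0551) and Cd68 (0.103) were not called there. At 24 h the summed macrophage and monocyte markers were 1671 to 2049 CPM with PGE2 and 1121 to 1555 CPM without, carried by Lyz2 and Csf1r, with 9 and 7 of the 12 markers detected, and the cDC2 markers 125.6 to 173.8 and 68.9 to 104.3 CPM, while the cDC1 markers were 3971 to 4134 and 5690 to 6131 CPM. Their part in the changes at 24 h was not tested.

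**Figure D3:**
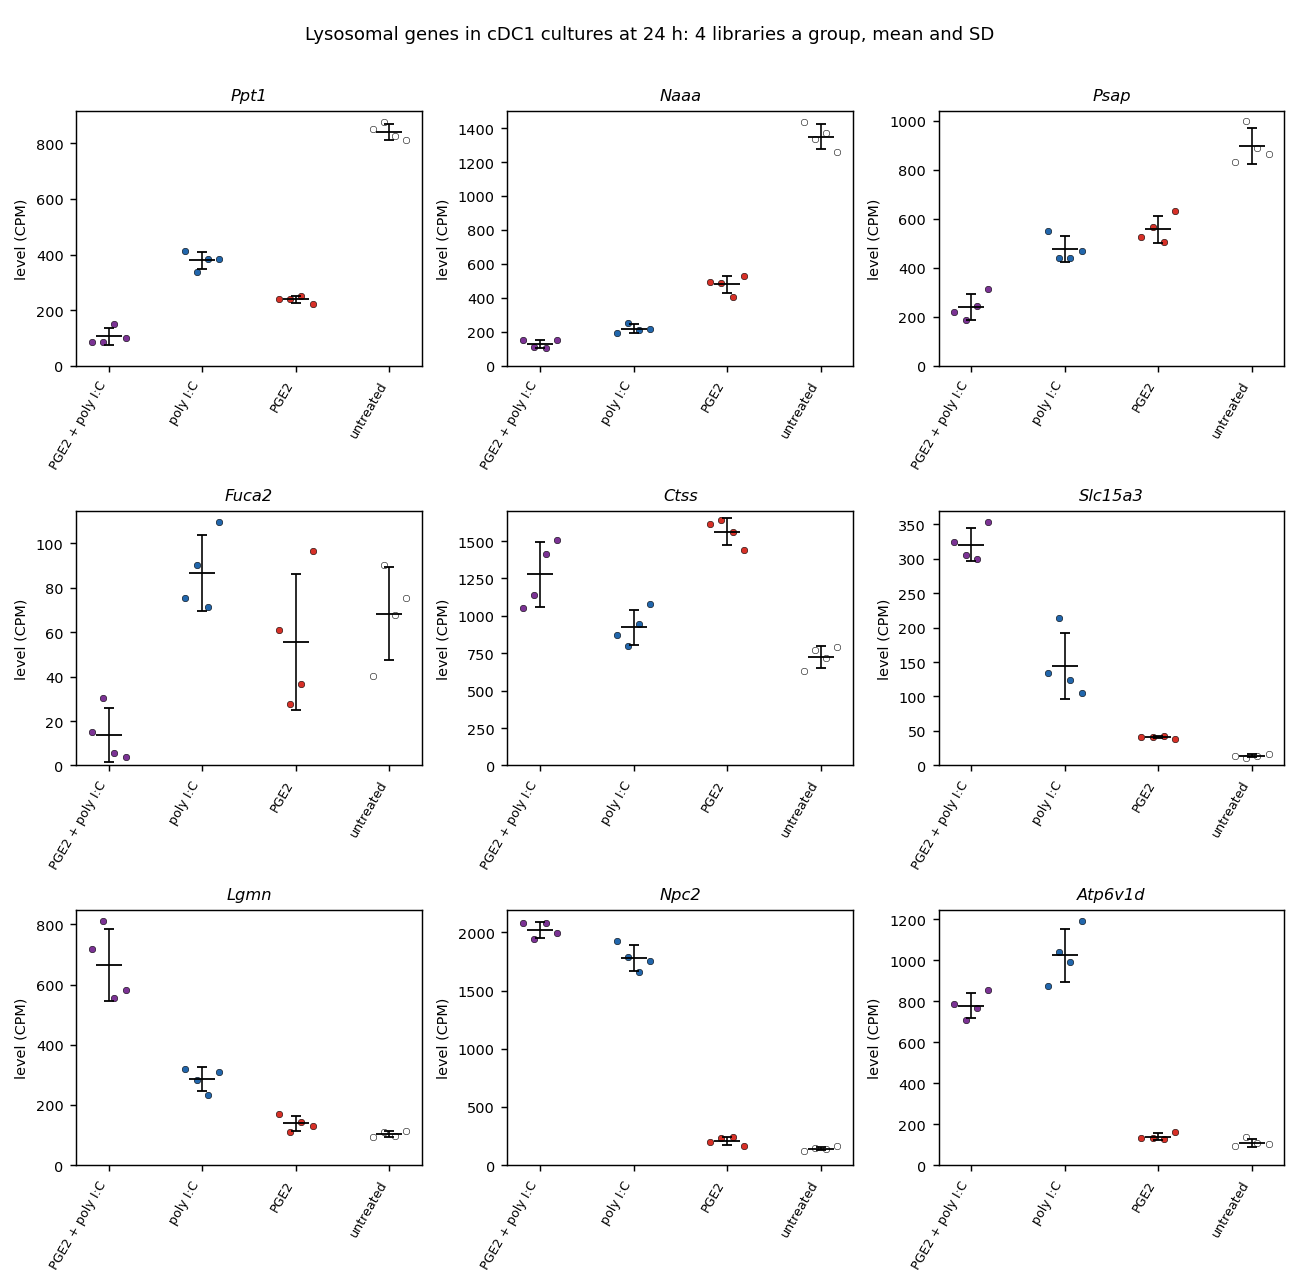
Level of 9 lysosomal genes in each library at 24 h, in CPM (vertical axis, linear, from 0), in the 4 groups (horizontal axis); points are libraries and bars are the mean with the SD of 4. Ppt1, Naaa and Psap are highest in untreated cells, Npc2 and Atp6v1d are high in both poly I:C groups, Lgmn and Slc15a3 are highest with PGE2 and poly I:C, and Fuca2 is lowest there.

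Poly I:C for 4 h changed most lysosomal genes, in both directions: 16 rose and 18 fell of 44 tested. At the same time 65% of all genes were called, 31.3% higher and 33.7% lower, so that the members' share of 34 in 44 lies near a high background. The median was -0.23 for members and -0.10 for all genes. The split depends on scaling: with library totals in place of TMM factors the median of all genes moved to -0.875, and 10 members were higher and 28 lower. Members took 0.743% to 0.828% of the counts with poly I:C and 1.14% to 1.23% without. These shares are not on the CPM scale of the levels, since TMM factors were 0.616 to 0.634 with poly I:C and 1.10 to 1.13 without. No direction of the summed members is taken from them.

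Of the 6 lipid genes 4 fell and 1, Npc2, rose. Npc2 was at 1928, 1789, 1659 and 1751 CPM with poly I:C, against 124, 144, 138 and 161 CPM in untreated cells (3.54 ± 0.12, adjusted p = 5.06e-68). Naaa was at 192, 254, 209 and 219 CPM with poly I:C, against 1435, 1333, 1372 and 1260.3 CPM in untreated cells (-2.74 ± 0.13, adjusted p = 2.26e-48). These were the members with the largest rise and, among the lipid genes, the largest fall, and the groups were far apart. Ppt1 (-1.26 ± 0.13, adjusted p = 1.56e-17), Psap (-1.03 ± 0.12, adjusted p = 5.02e-14) and Npc1, the membrane partner of Npc2 (-1.81 ± 0.56, adjusted p = 0.00304), fell, and Lipa had -0.62 ± 0.31 (adjusted p = 0.0722).

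The proteases split. Ctsz was at 964, 1225, 1145 and 1609.7 CPM with poly I:C, against 287, 383, 310.0 and 345 CPM in untreated cells (1.80 ± 0.12, adjusted p = 1.7e-32), with no overlap. Lgmn, the asparaginyl endopeptidase, was at 319, 282, 233 and 310.1 CPM with poly I:C, against 94, 109.9, 95.8 and 115 CPM in untreated cells (1.35 ± 0.18, adjusted p = 4.87e-11), also with no overlap. Ctsc, which activates granule proteases (1.24 ± 0.22, adjusted p = 1.83e-07), and Ctsb (1.18 ± 0.20, adjusted p = 4.91e-08) rose too, Ctsb not with library totals (0.41, adjusted p = 0.0543). Ctsd, the aspartic cathepsin (-1.32 ± 0.43, adjusted p = 0.00506), Ctsh, an aminopeptidase (-0.68 ± 0.22, adjusted p = 0.00393), Ifi30, a thiol reductase that opens disulfides of antigens (-1.23 ± 0.44, adjusted p = 0.0105), and Grn (-0.50 ± 0.13, adjusted p = 0.000376) fell. Ctss had 0.24 ± 0.11, adjusted p = 0.0379, but -0.53 with library totals, so that no direction is given for it. Past that reversal its call was lost with RLE factors, with no filter, with DESeq2, with only the groups compared or without untreated A or C or poly I:C D (0.057 to 0.353). Of 4 glycosidases Gusb (-1.79 ± 0.23), Hexa (-1.62 ± 0.21) and Man2b1 (-0.89 ± 0.16) fell. Fuca2 was not called (0.24 ± 0.30).

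The proton pump genes moved in both directions. Of 14 tested, 6 rose and 3 fell, so that 64.3% were called, near the 65% of all genes. Atp6v1d, a subunit of the central stalk, was at 877, 1039, 993 and 1190.2 CPM with poly I:C, against 94, 138, 107 and 102 CPM in untreated cells (3.10 ± 0.14, adjusted p = 1.31e-50), with no overlap. Among 3 genes for alternative forms of the membrane subunit a, Atp6v0a1 rose to 123 ± 56.4 CPM with poly I:C, against 13.6 ± 11.3 CPM in untreated cells (SD, n = 4 each; 3.06 ± 0.38, adjusted p = 1.4e-12). Atp6v0a2 fell (-1.66 ± 0.29, adjusted p = 2.06e-07), and so did Tcirg1, the form known from osteoclasts and phagosomes (-1.27 ± 0.45, adjusted p = 0.0103). The other pump genes that rose were Atp6v1b2 (1.55 ± 0.30), Atp6v1a (1.15 ± 0.35), Atp6v1g1 (1.18 ± 0.27) and Atp6v0d1 (0.70 ± 0.14), and Atp6v0e fell (-0.72 ± 0.13). With library totals Atp6v1a, Atp6v1g1 and Atp6v0d1 were not called, the last with -0.08.

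Among membrane proteins Slc15a3 was at 134, 214, 124 and 105 CPM with poly I:C, against 13.4, 11.3, 14.1 and 16.4 CPM in untreated cells (3.22 ± 0.32, adjusted p = 4.38e-18). Lamp2 (2.19 ± 0.24, adjusted p = 8.78e-16) and Laptm4a (1.48 ± 0.18, adjusted p = 7.63e-14) rose, whereas Laptm5, a relative of Laptm4a found in blood cells, fell (-0.99 ± 0.11, adjusted p = 1.91e-16) and Lamp1 was not called (0.29 ± 0.17, adjusted p = 0.138). Scarb2, the receptor that brings glucocerebrosidase to the lysosome, rose (0.88 ± 0.21, adjusted p = 0.000171), but not with library totals (0.10, adjusted p = 0.678). Mcoln1 (-1.27 ± 0.50, adjusted p = 0.0212), Hvcn1 (-1.74 ± 0.59, adjusted p = 0.00657) and Cln8 fell, Cln8 being at 2.6 ± 3.02 CPM with poly I:C, 2 counts in the 4 libraries, and 28.2 ± 10.1 CPM without. Of the 34 calls 24 held in every other fit, and the others were Ctsb, Ctss, Ifi30, Scarb2, Mcoln1, Hvcn1, Tcirg1, Atp6v0d1, Atp6v1a and Atp6v1g1. For Ifi30 the call was lost without poly I:C library C (0.0974), for Hvcn1 and Atp6v1a without poly I:C D (0.0641 and 0.114), for Tcirg1 without untreated C (0.0922) or poly I:C C (0.0627) or D (0.0703), and for Mcoln1 with no filter or without untreated A or poly I:C A, B or C (0.0504 to 0.14). Summed macrophage and monocyte markers were 456 to 649.1 CPM with poly I:C and 1121 to 1555 CPM without, and cDC1 markers 4103 to 4943 and 5690 to 6131 CPM. The cDC2 markers were 11.29 to 28.52 CPM with poly I:C and 68.92 to 104.3 CPM without, and those of plasmacytoid dendritic cells 62.08 to 127.7 and 30.99 to 49.23 CPM. The groups did not overlap in any of these sums, and the part of the markers was not tested.

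**Figure D4:**
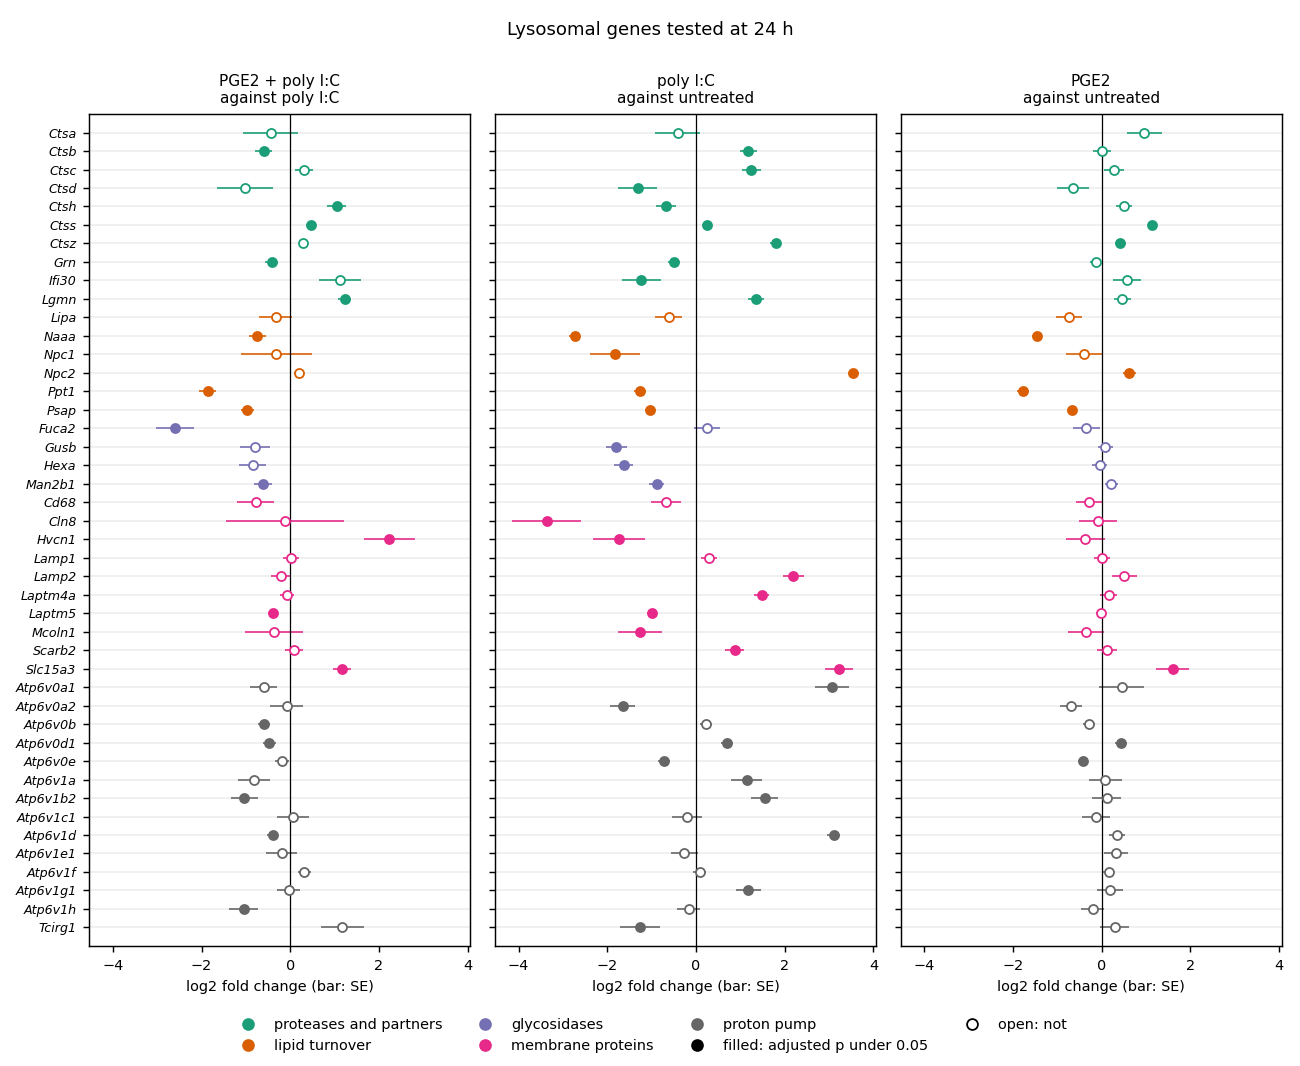
Log2 fold change of the 44 members tested at 24 h (horizontal axis, bars the SE of the fit) by gene (vertical axis, coloured by role) in 3 comparisons; filled points have an adjusted p of at most 0.05. Poly I:C gives wide shifts to both sides, with Npc2 at 3.54 and Naaa at -2.74, and PGE2 with poly I:C against poly I:C has 13 filled points left of 0 and 5 right of it.

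In cells given both PGE2 and poly I:C, more lysosomal genes were called lower than higher relative to poly I:C alone. The calls of all the higher ones held in every other fit, whereas every call lost in another fit, listed below, was of a lower one. Of 44 members 5 were higher and 13 lower, with 10.7% of all genes called, 5.03% higher and 5.65% lower, and the medians were -0.32 for members and -0.01 for all genes. The lower ones were 3 lipid genes, 2 glycosidases, 5 pump genes, Ctsb, Grn and Laptm5. The higher ones were Lgmn, Ctsh, Ctss, Slc15a3 and Hvcn1. Against PGE2 without poly I:C, 12 members were higher and 20 lower (background 64.8%), or 9 and 29 when scaled by library totals, which moved the median of all genes to -0.881; 26 of the 32 calls held in every other fit.

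Ppt1 was at 84.6, 87.2, 149.9 and 100.2 CPM with PGE2 and poly I:C, against 412, 339, 385 and 383 CPM with poly I:C (-1.86 ± 0.18, adjusted p = 6.04e-17). Psap was at 219, 188, 244 and 313 CPM with PGE2 and poly I:C, against 552, 440.2, 442 and 469.7 CPM with poly I:C (-0.97 ± 0.15, adjusted p = 6.82e-08). Naaa was at 149, 109, 105 and 152 CPM with PGE2 and poly I:C, against 192, 254, 209 and 219 CPM with poly I:C (-0.75 ± 0.19, adjusted p = 0.00204). In all 3 lipid genes the groups did not overlap. Fuca2 was at 14.9, 30.5, 5.55 and 4.01 CPM with PGE2 and poly I:C, against 75.5, 90.3, 71.3 and 109 CPM with poly I:C (-2.60 ± 0.44, adjusted p = 1.07e-06). The Fuca2 level of the combined group rests on 12 counts in 4 libraries, and its highest library was below all of poly I:C. Man2b1, the acid mannosidase, fell too (-0.61 ± 0.20, adjusted p = 0.031).

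Lgmn was at 716, 811, 555 and 581 CPM with PGE2 and poly I:C, against 319, 282, 233 and 310.1 CPM with poly I:C (1.23 ± 0.15, adjusted p = 2.52e-11). Slc15a3 was at 323, 305, 299.7 and 353 CPM with PGE2 and poly I:C, against 134, 214, 124 and 105 CPM with poly I:C (1.17 ± 0.20, adjusted p = 2.42e-06). Both were higher in every combined library than in any poly I:C library. Ctsh was at 210.2 ± 38.6 CPM with PGE2 and poly I:C and 102 ± 22.6 CPM with poly I:C (SD, n = 4 each; 1.05 ± 0.22, adjusted p = 0.000113). Ctss was at 1055, 1138, 1415 and 1507 CPM with PGE2 and poly I:C, against 871, 801, 946 and 1076 CPM with poly I:C (0.47 ± 0.11, adjusted p = 0.000457), which overlapped by library D of poly I:C. Hvcn1 was at 34.8, 30.5, 55.5 and 56.1 CPM with PGE2 and poly I:C, against 11.6, 11.3, 14.3 and 0 CPM with poly I:C (2.23 ± 0.58, adjusted p = 0.00301), with no overlap and 7 counts in the poly I:C group. Npc2, at 1940.5 to 2081 CPM in the combined group and 1659 to 1928 CPM with poly I:C, was not called (0.19 ± 0.10, 95% interval -0.0022 to 0.37).

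The pump genes that fell were Atp6v0b (-0.59 ± 0.14, adjusted p = 0.00118), Atp6v1d (-0.40 ± 0.12, adjusted p = 0.0124), Atp6v1b2 (-1.03 ± 0.30, adjusted p = 0.0123), Atp6v0d1 (-0.48 ± 0.15, adjusted p = 0.0171) and Atp6v1h (-1.05 ± 0.33, adjusted p = 0.0225), and none of the 14 rose. Of the 18 calls, 10 held in all 14 other fits: those of Ctsh, Ctss, Lgmn, Fuca2, Naaa, Ppt1, Psap, Hvcn1, Slc15a3 and Atp6v0b. Among the others, Ctsb (-0.60 ± 0.20) lost its call with no filter, with DESeq2 or without poly I:C B, C or D or PGE2 + poly I:C B, C or D (0.0594 to 0.191), Grn (-0.42 ± 0.14) with no filter, with DESeq2 or without poly I:C A or C or PGE2 + poly I:C B or C (0.0534 to 0.287), Man2b1 with no filter, with DESeq2 or without poly I:C A or D or PGE2 + poly I:C B, C or D (0.0524 to 0.135) and Laptm5 (-0.39 ± 0.12) with no filter or without poly I:C B or C or PGE2 + poly I:C C or D (0.0521 to 0.169). Atp6v0d1 lost it with no filter or without poly I:C C or D or PGE2 + poly I:C C (0.0502 to 0.123), Atp6v1b2 with DESeq2 or without poly I:C A or D or PGE2 + poly I:C A (0.0518 to 0.141), Atp6v1d with no filter or without poly I:C D or PGE2 + poly I:C B (0.0595 to 0.116) and Atp6v1h with no filter or without poly I:C C or PGE2 + poly I:C A, B or C (0.0541 to 0.0862). Summed cDC1 markers were 4685 to 5437 CPM with PGE2 and poly I:C and 4103 to 4943 CPM with poly I:C, and macrophage and monocyte markers 423 to 482.6 and 456 to 649.1 CPM. The cDC2 markers were 48.08 to 61.05 CPM with PGE2 and poly I:C and 11.29 to 28.52 CPM with poly I:C, without overlap. Their part was not tested.

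Whether the effect of PGE2 was another one under poly I:C was tested by the interaction, which called 7 members, 2 positive and 5 negative (background 3.28%). Fuca2 had a PGE2 effect of -2.60 with poly I:C and -0.35 without, an interaction of -2.25 ± 0.55 (adjusted p = 0.00513). For Ctss the effects were 0.47 with and 1.14 without poly I:C (-0.68 ± 0.14, adjusted p = 0.000724), and for Atp6v0d1 -0.48 and 0.44 (-0.91 ± 0.20, adjusted p = 0.00112), whose sign thus differed with and without poly I:C. These 3 interactions held in all 21 other fits. Hvcn1 (2.61 ± 0.73, adjusted p = 0.0235), Naaa (0.72 ± 0.22, adjusted p = 0.0427), Man2b1 (-0.83 ± 0.24, adjusted p = 0.0321) and Atp6v1d (-0.73 ± 0.22, adjusted p = 0.0321) were called too. Hvcn1 lost the call with no filter or without untreated C, PGE2 A, poly I:C D or PGE2 + poly I:C D (0.0507 to 0.0956), Naaa with no filter or without untreated A, B or C, PGE2 B or C, poly I:C A, C or D or PGE2 + poly I:C A or D (0.0505 to 0.153), Man2b1 with no filter or without untreated B or D, PGE2 D, poly I:C A or D or PGE2 + poly I:C B, C or D (0.0512 to 0.22) and Atp6v1d with no filter or without untreated A, C or D, PGE2 D, poly I:C B, C or D or PGE2 + poly I:C A, B or C (0.0513 to 0.248). For Ppt1 and Psap the interaction was -0.09 ± 0.22 and -0.31 ± 0.19, with 95% intervals of -0.53 to 0.35 and -0.67 to 0.06.

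Other genes of the lysosome were read from a second list of 50 hydrolases, activators and carriers, of which 14 were tested at 4 h and 17 at 24 h. With PGE2 at 4 h 2 of them fell and none rose (14.3%, background 8.57%). With control CM against Ptgs-deficient CM 1 fell and none rose (7.14%, background 3.95%). With PGE2 at 24 h 2 fell and 1 rose (17.6%, background 7.97%). Arsb, a sulfatase of glycosaminoglycans, was among those that fell (-1.56 ± 0.40, adjusted p = 0.00394). Cd63, a tetraspanin of late endosomes, rose (3.03 ± 0.32, adjusted p = 1.05e-14). Under poly I:C 6 of 17 rose and 8 fell (82.4%, background 65%). PGE2 with poly I:C against poly I:C had 1 of the list higher, Cd63 (2.91 ± 0.28, adjusted p = 2.73e-17), and 4 lower (29.4%, background 10.7%). Their medians were -0.08 with PGE2 at 4 h, 0.06 with PGE2 at 24 h, -0.54 with poly I:C and -0.27 with PGE2 and poly I:C against poly I:C. A further list held 31 genes of sorting to the lysosome, of its regulation and of autophagy, with the protease inhibitor genes Cst3 and Cstb among them. Of these, 21 were tested at each time. Sqstm1, the autophagy receptor p62, rose with PGE2 at 4 h (1.24 ± 0.24, adjusted p = 3.57e-05) and at 24 h (0.61 ± 0.18, adjusted p = 0.0158). It was the only call of that list at either time, 4.76% of the 21, where the background was 8.57% and 7.97%. The list had no call with control CM against Ptgs-deficient CM (background 3.95%). Under poly I:C 6 of the 21 rose and 5 fell, 52.4% of them, which is below the background of 65%. Tfeb, the gene of the factor named above, had a log2 fold change of -0.39 ± 0.46 with PGE2 at 4 h (adjusted p = 0.737) and fell with poly I:C (-2.23 ± 0.64, adjusted p = 0.00133), to 5 counts in the 4 libraries, against 41 in untreated cells. With PGE2 and poly I:C against PGE2 it had -1.74 ± 0.65 (adjusted p = 0.0141), a call lost without PGE2 A or PGE2 + poly I:C B (0.0574 to 0.0656). Tfe3, a related factor, rose with poly I:C (1.44 ± 0.37, adjusted p = 0.00032) and with PGE2 and poly I:C against PGE2 (1.34 ± 0.34, adjusted p = 0.000254), but with library totals neither was called (0.67, adjusted p = 0.0914, and 0.57, adjusted p = 0.119).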

How the data were processed

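Per the labels' protocols, the deposited table holds raw UMI counts per gene that the authors made with a Drop-seq pipeline from 3′-end libraries, against GRCm38 and Ensembl release 75; the submitters' processing notes add DESeq2 1.14.1 and GRCm38.p6. Neither aligner nor strand setting is given in the sources used here, and reads of overlapping genes cannot be told apart. Of 23136 lines, 1 held no counts and was left out, and 20 date-like gene names (0.105% of counts) stayed in. No 2 libraries held identical values, and the libraries of each group differed from each other by more than sampling noise.

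Genes passing edgeR's filterByExpr by group were fitted with edgeR 4.0.16 (R 4.3.3; TMM factors, robust quasi-likelihood test, Benjamini-Hochberg adjustment over all genes tested) in 3 fits: the 36 libraries of 4 h, the 16 of 24 h, and the 16 untreated and PGE2 libraries of both times. Every adjusted p given with an n under 10 comes from these fits. The code was tested on simulated data. Alternatives were DESeq2 1.42.0, RLE factors, library totals, no filter, only the groups compared, leaving out each library or both under 60000 counts, and a replicate block. The members and lists were chosen with earlier results of these data known. Each member may be named. Of the list of other lysosomal genes some results are not reported here by gene, and its counts and medians cover the whole list. Values in every library are given for Naaa, Ppt1 and the up to 4 members with the smallest adjusted p in the main comparisons, and other members shown that way were chosen after their values were seen. Gene positions are those of GENCODE M21 on GRCm38, and promoter windows are those of RefSeq (GRCm38.p6). Intervals and floors cover counting or fit error only.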

Additional observations from a re-analysis of the deposited data

Results flagged for a closer look

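Of 156 groups of 4 libraries, 12 members in each of 13 groups, 13 had a library far from the other 3 of its group, where chance alone gives about 1 in 20 groups. Library B of the EP3 antagonist was high in Naaa (963.5 CPM) and Hvcn1 (61.64 CPM), and its library A was high in Npc2 (313.1 CPM). Untreated library A of 4 h, 1 of the shallow ones, was low in Naaa (889.8 CPM), and library A of PGE2 at 4 h was high in Ppt1 (348.8 CPM). Lipa was high in library D of the EP2 antagonist (70.11 CPM) and of the EP4 antagonist (86.73 CPM), and Lgmn was high in library A of the EP4 antagonist (261.9 CPM), the shallowest of all. Library A of control CM was high in Fuca2 (57.43 CPM) and far from its group in Ctsz (389.7 CPM). Ctsz was also apart in library C of the EP1 antagonist (194.3 CPM) and in library C of PGE2 at 24 h (370.6 CPM), and Atp6v1d in library D of PGE2 at 24 h (164.1 CPM).

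The effect of PGE2 differed by poly I:C, by the interaction test, for Ctss (-0.6774), Man2b1 (-0.8334), Fuca2 (-2.251), Atp6v0d1 (-0.9127), Atp6v1d (-0.7343), Naaa (0.7234) and Hvcn1 (2.606, log2). It differed between 24 h and 4 h for Ctss (0.6602) and Hvcn1 (2.489). For Hvcn1 both differences rest on low counts, with 7 in the 4 poly I:C libraries and 0 in PGE2 library A of 4 h.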

How the results depend on the processing

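The number of members called moved little with the settings in most comparisons, but single calls held less well. Calls held in every other fit were 8 of 11 for PGE2 at 4 h, 4 of 7 for control CM against Ptgs-deficient CM and 6 of 9 for PGE2 at 24 h. They were 24 of 34 for poly I:C, 10 of 18 for PGE2 and poly I:C against poly I:C and 3 of 7 for the interaction. The number called changed by more than 1.5 times in the following cases. For EP2 + EP4 antagonists against untreated cells, with 2 called, it was 1 with RLE factors, 1 with library totals, 1 without the shallow libraries and 0 with no filter. It was 1 for Ptgs-deficient CM against untreated cells with no filter, and 2 for the EP2 antagonist with no filter or with only the groups compared, each against 0. It was 11 of 18 for PGE2 and poly I:C against poly I:C and 3 of 7 for the interaction with no filter, which adds genes to the adjustment. The difference of the PGE2 effect between times, with 2 called, had 6 with library totals (which moved the median of all genes to 0.129), 5 without the shallow libraries and 1 with DESeq2. The cause was not tested. The sign turned with library totals for Ctss (-0.5348), Fuca2 (-0.5295) and Atp6v0d1 (-0.07804) under poly I:C and for Ctsb with PGE2 and poly I:C against PGE2 (-0.2015). Ctsz in control CM against Ptgs-deficient CM was -0.046 with library totals and -0.003513 with no filter; like the next 4, it was not called.

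Leaving out 1 library moved Lgmn (-0.3183 to 0.07611) and Npc2 (-0.131 to 0.05088) with PGE2 at 4 h across 0, and Ctsz (-0.146 to 0.09047), Lgmn (-0.02618 to 0.2312) and Atp6v1d (-0.04722 to 0.2321) in control CM against Ptgs-deficient CM. Counts of calls then ran from 4 to 8 there, from 3 to 7 for the interaction, from 2 to 5 for the difference between times, from 0 to 1 for Ptgs-deficient CM and for EP2 + EP4 antagonists against untreated cells, from 9 to 11 for PGE2 at 4 h, 6 to 10 at 24 h, 30 to 34 for poly I:C and 13 to 17 for PGE2 and poly I:C against poly I:C. Libraries with the same letter hardly deviated together (r from -0.0657 to 0.0568). This does not exclude a pairing by letter, since counting noise in shallow libraries weakens such correlations. The number of letters that correlated best with their own letter ran from 0 to 4 by comparison, with 4 for PGE2 and poly I:C against poly I:C. The replicate block gave 11 in place of 9 calls for PGE2 at 24 h and 19 in place of 18 for PGE2 and poly I:C against poly I:C. Depth limits the low members: in 1 library a level under the floor of 3 counts was taken as not told from 0. This floor is 9.96 CPM in the median library and 13.7 to 17.4 CPM with poly I:C.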
